A study of Mus musculus with 1646 samples.

Results

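The sub-epithelial apex fibroblasts of the mouse colon were the cells carrying cluster label 2. They made up 7.96% of the 1646 colon cells sequenced one by one: 55 cells of the PdgfraGFP, 44 of the Acta2GFP, 30 of the PdgfrbGFP and 2 of the Cspg4dsRED reporter line, beside 1515 cells with another label. Membership was read from the deposited cluster label of each cell, and the study's authors had drawn the clusters from these same counts. The labels give the clusters by number alone. The other clusters are called here by working names for their presumed place or type: middle to apex fibroblasts (cluster 6, 45 cells or 2.73% of all), middle fibroblasts (cluster 1, 29.3% of all cells), base to middle fibroblasts (cluster 5, 25.8% of all cells), base fibroblasts (cluster 7, 13.5% of all cells), vascular smooth muscle cells (cluster 3, 8.57% of all cells), pericytes (cluster 4, 8.63% of all cells) and interstitial smooth muscle cells (cluster 8, 56 cells). The question addressed by the comparison is which transcripts set the fibroblasts beneath the surface epithelium apart from the deeper mucosal fibroblasts and from the mural cells. The cells came from male mice of 10 to 20 weeks, sorted by fluorescence after enzymatic digestion, with PECAM1-positive endothelial cells gated out. There was no treatment, and the labels distinguish the cells only by the strain, that is by the reporter: PdgfrbGFP (a bacterial artificial chromosome transgene), Acta2GFP (a promoter transgene), PdgfraGFP (nuclear H2BGFP knocked into 1 *Pdgfra* allele) and Cspg4dsRED (a DsRed transgene). Each line samples only cells that express its reporter or bind the sorting antibody, and the Acta2GFP tissue was digested with elastase in addition. The labels name no individual mouse, so a reporter line was taken as the unit of replication, and p-values then measure the spread between lines, which also differ by plate and gate. Every cell was a SmartSeq2 library of its own, with full-length coverage and no molecular identifiers.

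The colonic mucosa is folded into crypts, with stem cells at the base and differentiated colonocytes at the surface. Fibroblasts next to this epithelium are known as sources of the signals that keep the gradient: WNT ligands and R-spondins sustain proliferation at the base, whereas BMP ligands favour differentiation towards the surface, and secreted antagonists such as gremlin shield the base from BMP. Subepithelial fibroblasts with high PDGFRα and the winged-helix factor FOXL1 have been described as telocytes, and they lie against the basement membrane that carries the epithelium.

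All 7 markers listed for these cells were higher in the apex fibroblasts than in the mean of the other 7 clusters. Levels are counts per 500000 counts of a cell, averaged over the cells of a cluster and line. *Pdgfra*, the receptor for PDGF-AA, stood at 1284 in the Acta2GFP, 766 in the PdgfraGFP and 1076 in the PdgfrbGFP line. These 3 values lay above every other sum of cells, the highest of which reached 761 in a cluster of middle to apex fibroblasts. The lowest apex value belonged to the line in which GFP replaces 1 *Pdgfra* allele, and the part of that allele in the value was not tested. *Bmp2*, a differentiation-promoting ligand, stood at 399.1 in the Acta2GFP, 422.4 in the PdgfraGFP and 549 in the PdgfrbGFP line, with no overlap with the other clusters (highest sum 116.3). *Bmp7*, a second ligand of the family, stood at 614 in the Acta2GFP, 204.6 in the PdgfraGFP and 375.9 in the PdgfrbGFP line, and here the groups overlapped, since the middle to apex fibroblasts averaged 350.2 ± 128.7 (SD, n = 2 lines).

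*Il1rl1*, which encodes the IL-33 receptor ST2, stood at 115.9 in the Acta2GFP, 391.1 in the PdgfraGFP and 302.2 in the PdgfrbGFP line. No other sum exceeded 3.57, so the groups were far apart although the apex lines themselves differed several fold. *Ptgs2*, the inducible cyclooxygenase, stood at 1328 in the Acta2GFP, 811 in the PdgfraGFP and 1139 in the PdgfrbGFP line, against at most 65.7 elsewhere. *Foxl1* stood at 169.97 in the Acta2GFP, 111.7 in the PdgfraGFP and 155.6 in the PdgfrbGFP line, and its highest value outside the apex was 62.6, in the 1 sum of interstitial smooth muscle cells. *Lama5*, the laminin chain of the epithelial basement membrane, stood at 183.4 in the Acta2GFP, 647 in the PdgfraGFP and 373.6 in the PdgfrbGFP line against at most 115.3. Outside the apex cells *Lama5* was a mural transcript, with 100.3 in vascular smooth muscle and at most 9.03 as the mean of any other fibroblast cluster.

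The log2 fold change against the mean of the other 7 clusters ran from 3.92 (*Bmp2*) to 9.11 (*Il1rl1*), with adjusted p between 1.5e-06 and 2.0e-04 (edgeR quasi-likelihood test with Benjamini-Hochberg adjustment over 21739 genes). In that comparison 5.65% of all genes were called higher and 0.934% lower. Since the clusters were drawn from these counts, all p-values between clusters describe the clusters and are not independent of how they were drawn. Against the other 4 fibroblast clusters 6 of the 7 markers were higher, beside 4.48% of all genes higher and 1.17% lower, and *Pdgfra* had an adjusted p of 0.058. Counted per cell, 74 apex fibroblasts (56.5%) had a count for all 7 markers, 41 for 6, 12 for 5, 3 for 4 and 1 for 3. All 7 were counted in 86 of the 1176 other fibroblasts (7.31%) and in 3 mural cells (0.885%).

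The promoters of the markers are shown because early-response, cyclic AMP-response and TCF/LEF elements are the textbook sites of transcripts of this kind, and because *Ptgs2*, *Lef1* and the AP-1 genes *Fos* and *Jun* were all higher in these cells. Of the 7 markers 4 had an entry in the RefSeq promoter collection (assembly GRCm38.p6), each of 300 bases from 250 before to 50 after the annotated start: *Pdgfra* at chr5:75152001-75152300 (plus strand), *Il1rl1* at chr1:40429320-40429619 (plus strand), *Ptgs2* at chr1:150099781-150100080 (plus strand) and *Lama5* at chr2:180225810-180226109 (minus strand). For *Il1rl1* the collection holds 2 windows, and the one nearest to the annotated gene start was used. *Bmp2*, *Bmp7* and *Foxl1* are named only. The sequences read 5′ to 3′ along the gene's strand, and capitals mark the core of the cyclic AMP response element (TGACG, or CGTCA where it lies on the other strand).
Pdgfra: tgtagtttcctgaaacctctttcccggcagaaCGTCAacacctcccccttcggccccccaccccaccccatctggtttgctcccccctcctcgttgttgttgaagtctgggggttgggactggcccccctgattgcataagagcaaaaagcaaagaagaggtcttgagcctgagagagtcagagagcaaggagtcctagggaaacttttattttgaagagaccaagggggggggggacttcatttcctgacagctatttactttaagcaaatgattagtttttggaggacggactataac
Il1rl1: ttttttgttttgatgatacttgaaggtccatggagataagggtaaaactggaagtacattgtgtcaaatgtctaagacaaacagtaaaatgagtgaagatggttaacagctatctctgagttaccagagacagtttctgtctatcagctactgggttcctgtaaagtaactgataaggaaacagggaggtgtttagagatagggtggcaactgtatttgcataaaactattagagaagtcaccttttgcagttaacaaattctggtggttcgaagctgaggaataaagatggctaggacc
Ptgs2: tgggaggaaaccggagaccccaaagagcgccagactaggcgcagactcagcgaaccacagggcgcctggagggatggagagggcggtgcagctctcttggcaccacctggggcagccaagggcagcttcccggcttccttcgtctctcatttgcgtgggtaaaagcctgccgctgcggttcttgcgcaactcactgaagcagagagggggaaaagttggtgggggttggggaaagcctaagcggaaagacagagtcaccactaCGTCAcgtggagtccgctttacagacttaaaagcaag
Lama5: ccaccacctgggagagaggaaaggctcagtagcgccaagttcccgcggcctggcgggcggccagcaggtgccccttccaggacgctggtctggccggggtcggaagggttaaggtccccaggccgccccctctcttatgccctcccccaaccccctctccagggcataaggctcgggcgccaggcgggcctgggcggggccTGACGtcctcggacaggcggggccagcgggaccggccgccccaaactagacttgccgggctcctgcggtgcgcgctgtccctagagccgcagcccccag
Counted from the start as position 1, the cyclic AMP response core began at -218 in *Pdgfra*, at 14 in *Ptgs2* and at -49 in *Lama5*, and *Il1rl1* held none. The AP-1 motif (TGANTCA) and the TCF/LEF core (CTTTGA), both searched on either strand, had no match in the 4 windows. The shares that follow take 1 window per gene symbol, the first listed. Over 27025 such promoters of the collection 21.02% held the cyclic AMP response core, 7.93% the AP-1 motif and 16.2% the TCF/LEF core. Among 758 promoters of genes higher in apex cells than in the other 7 clusters the shares were 22.2%, 8.84% and 11.9%, beside 28.97%, 5.42% and 12.6% of the 13017 promoters of all genes tested. A match describes these letters only and says nothing of binding.

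The apex cells fell very unevenly over lines and plates. Of all PdgfraGFP cells they were 24.2%, with a 95% Clopper-Pearson interval of 18.8 to 30.3%. The share was 7.76% in the Acta2GFP line (5.69 to 10.3%), 3.94% in the PdgfrbGFP line (2.68 to 5.58%) and 2.20% in the Cspg4dsRED line (0.267 to 7.71%). Within a line the plates differed as well. Of the 2 Acta2GFP plates 1 held 40 apex cells (15.4% of its cells) and the other 4 (1.30%), and 1 of the 4 PdgfrbGFP plates held none, which allows up to 3.13% by the same interval. The intervals cover counting error only, line, gate and plate cannot be told apart in these shares, and the shares were not compared as abundances. The apex cells held 55066 to 1351812 counts each (median 261785), and the 3 sums that entered the tests held 7484119 counts (Acta2GFP), 26240096 (PdgfraGFP) and 11153044 (PdgfrbGFP). The 2 Cspg4dsRED cells were too few for a sum.

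Against the mean of the other 7 clusters 1229 genes (5.65%) were higher and 0.934% lower in the apex fibroblasts (edgeR, adjusted p under 0.05, 21739 genes tested). The median log2 fold change of all genes was 0.09. The split depended on the method: 85.8% of the called genes were higher here, 58.6% with DESeq2 and 55.5% with limma on means per cell. When all other cells of a line were pooled into 1 sum the share was 48.02%. Leaving out the Acta2GFP line gave 2.73% higher and 0.232% lower, leaving out PdgfraGFP 4.54% and 0.623%, PdgfrbGFP 3.45% and 0.625% and Cspg4dsRED 6.03% and 1.39%, each as a share of the genes tested. The 1 sum of cluster 8 came from Acta2GFP, so wherever that line is left out the comparison with all clusters is against 6 of them. Against the other 4 fibroblast clusters the same omissions gave 1.08% and 0.142%, 2.43% and 0.409%, 2.76% and 0.943% and 4.997% and 1.83%, beside 4.48% and 1.17% with all lines. The apex mean was above every other cluster in each of the 3 lines for 2.47% of the genes and below for 1.65%, and 1.77% were also called higher and 0.469% called lower. For 1.4% of the genes the 3 apex sums lay above all 18 other sums, and for 70 genes (0.322%) below. Fold changes of transcripts near 0 in the other clusters depend on the prior count of the model and are no bounds, so levels are given beside them.

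The 15 genes with the largest log2 fold change at a mean level of at least 50, all above the other clusters in each line, were *Trpa1*, *Cd300e*, *Lpar3*, *Dclk3*, *Ano2*, *Il1rl1*, *Slco4a1*, *Paqr5*, *Sema4d*, *Lef1*, *Lgr5*, *Gatm*, *F2rl3*, *Stc1* and *Nrg1*. Channels, receptors, secreted ligands and WNT pathway components stand among them. *Trpa1*, the irritant-sensing cation channel (GRCm38, chromosome 1 from 14872648 to 14918862), had the largest fold change and the most even levels, 117.4 in the Acta2GFP, 117.9 in the PdgfraGFP and 122.8 in the PdgfrbGFP line, while no other sum passed 0.880 (log2 fold change 10.42 ± 1.05 (SE), adjusted p = 5.7e-06). *Ano2*, a calcium-activated chloride channel, stood at 170.05, 80.5 and 128.3 in the same order of lines against at most 2.11. In both genes the apex lines and the other sums did not overlap.

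Among the receptors, *Lpar3*, a receptor for lysophosphatidic acid, stood at 105.7 in the Acta2GFP, 117.5 in the PdgfraGFP and 178.8 in the PdgfrbGFP line (log2 fold change 9.69 ± 0.99 (SE), adjusted p = 3.7e-06), and no other sum passed 1.28. *F2rl3*, the thrombin receptor PAR4, stood at 87.4, 84.1 and 49.04 in the same order, and the middle to apex fibroblasts were the 1 other cluster with a sizeable level (23.2 ± 1.37, SD, n = 2). *Paqr5*, a membrane progestin receptor, stood at 70.7, 99.96 and 79.3 against at most 3.12. *Cd300e*, better known as an activating receptor of myeloid cells, stood at 114.6, 116.3 and 69.95 against at most 1.20, while *Ptprc*, the pan-leukocyte marker CD45, did not pass 0.122 in any apex line.

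*Nrg1*, the ERBB3/ERBB4 ligand neuregulin 1 (GRCm38, chromosome 8 from 31814551 to 32884029), stood at 240.6 in the Acta2GFP, 325.8 in the PdgfraGFP and 262.2 in the PdgfrbGFP line (log2 fold change 7.96 ± 0.79 (SE), adjusted p = 3.0e-06). Elsewhere the interstitial smooth muscle cells stood highest, at 16.97, and no mean of a further cluster passed 3.29. With each cell thinned to 50000 counts, *Nrg1* was counted in 89.3% of apex cells, 9.15% of the other fibroblasts and 6.59% of mural cells, the last 2 shares standing for the background. *Lef1*, a nuclear effector of WNT signalling, stood at 87.5 in the Acta2GFP, 161.95 in the PdgfraGFP and 91.96 in the PdgfrbGFP line (log2 fold change 8.79 ± 0.68 (SE), adjusted p = 8.3e-07), with a thinned share of 65.6% against 3.93% and 1.497%. *Lgr5*, the R-spondin receptor known from crypt base stem cells, stood at 224.6 in the Acta2GFP, 297.9 in the PdgfraGFP and 341.1 in the PdgfrbGFP line (log2 fold change 8.61 ± 0.93 (SE), adjusted p = 5.8e-06), with 43.5% against 9.06% and 5.09%. Both WNT components were thus present in all 3 lines and near 0 in every other cluster.

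*Stc1*, the secreted hormone stanniocalcin 1, stood at 33.4, 24.2 and 100.7, and *Gatm*, an enzyme of creatine synthesis, at 34.7, 53.4 and 122.6, both highest in the PdgfrbGFP cells. The transporter *Slco4a1* stood at 81.6, 146.97 and 152.9, the kinase *Dclk3* at 59.7, 67.3 and 44.2 and the semaphorin *Sema4d* at 63.4, 64.9 and 42.2. In plate by plate comparison, 12 of these 15 genes, *Trpa1*, *Il1rl1*, *Lef1*, *Lgr5* and *Nrg1* among them, were above every other cluster on 7 of the 7 plates with at least 3 apex cells, over the clusters with at least 3 cells on the plate. The plates divide the same cells, and the 15 genes were chosen for standing above every other cluster in each line. Their plate counts thus describe evenness and are no separate support. No such count was made over all genes. The Cspg4dsRED plate, with 2 apex cells, was left out here and in the plate values below. *Sema4d*, *Cd300e* and *Gatm* were above on 6 of the 7. Of the markers *Bmp2*, *Il1rl1* and *Ptgs2* were above on all 7, *Pdgfra*, *Foxl1* and *Lama5* on 6 and *Bmp7* on 4. Single cells spread widely: for *Lgr5* the 10th percentile of the apex cells was 0, the median 1.74 and the 90th percentile 918.

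**Figure D1:**
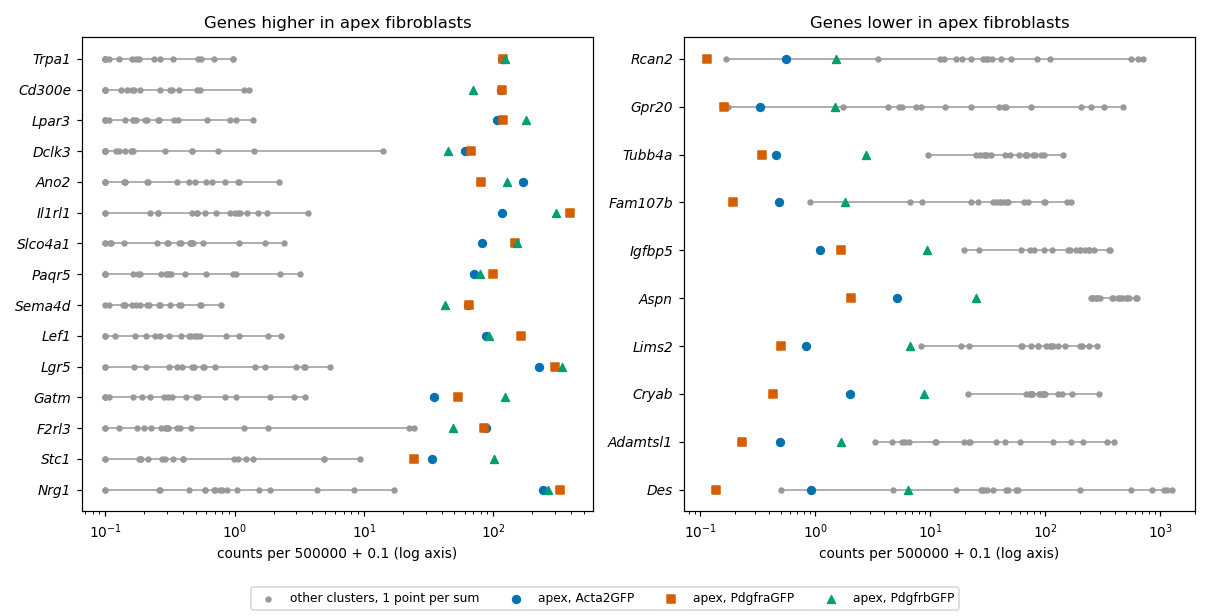
Levels (counts per 500000, logarithmic axis) of the 15 named higher genes (left) and 10 named lower genes (right). Coloured points are the 3 apex sums and grey points are the 18 sums of the other clusters, joined by a line over their range.

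The 10 genes with the largest decrease were *Rcan2*, *Gpr20*, *Tubb4a*, *Fam107b*, *Igfbp5*, *Aspn*, *Lims2*, *Cryab*, *Adamtsl1* and *Des*, all below the other clusters in each line. *Aspn*, which encodes the small leucine-rich proteoglycan asporin (GRCm38, chromosome 13 from 49544443 to 49567565), stood at 5.05 in the Acta2GFP, 1.95 in the PdgfraGFP and 24.9 in the PdgfrbGFP line in apex cells, while the other sums ran from 249.7 to 627 (log2 fold change -5.04 ± 0.63 (SE), adjusted p = 3.2e-05). The groups did not overlap, and the difference held against fibroblast and mural clusters alike. *Igfbp5*, an IGF-binding protein, stood at 1.01, 1.57 and 9.20 in the same order of lines against 19.5 to 363.6, and *Cryab*, a small heat shock protein, at 1.92, 0.329 and 8.72 against 21.2 to 293.4.

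*Des*, the muscle intermediate filament desmin, *Rcan2*, a calcineurin regulator, and *Gpr20*, an orphan receptor, had their highest levels in mural cells. *Des* averaged 1159 in vascular smooth muscle and 699 in pericytes, against 0.828, 0.0374 and 6.27 in the apex lines and 2.53 in middle to apex fibroblasts. These 3 genes no longer passed without the Acta2GFP line (adjusted p = 0.144 for *Des*, 0.0874 for *Rcan2* and 0.174 for *Gpr20*), whereas the other 22 named genes passed without any single line. *Tubb4a*, a beta-tubulin, stood at 0.357, 0.247 and 2.67 against 9.41 to 141.7. In all 10 genes the highest apex level was that of the PdgfrbGFP line, and for *Rcan2*, *Gpr20*, *Fam107b* and *Des* that level overlapped with the lowest sums of other lines.

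The counts for gene lists that follow stand beside 5.65% of all genes higher and 0.934% lower against the other 7 clusters, and 4.48% and 1.17% against the other 4 fibroblast clusters. They are edgeR calls unless another method is named. DESeq2 called 3.58% of all genes lower in the first comparison and 3.96% in the second. Counts of lower genes in a list, 0 included, can therefore be larger with DESeq2. Of 9 BMP ligands listed, 8 were tested, and 5 were higher and 0 lower (median log2 fold change 2.35), and 3 and 0 against the other fibroblasts. Besides *Bmp2* and *Bmp7* these were *Bmp4*, *Bmp5* and *Bmp3*. *Bmp5* stood at 799 in the Acta2GFP, 595 in the PdgfraGFP and 656 in the PdgfrbGFP line (log2 fold change 3.87 ± 0.46 (SE), adjusted p = 1.6e-05), but the middle to apex fibroblasts reached 618 ± 151.3, so the groups overlapped. *Bmp4* stood at 646, 859.6 and 846, in the range of middle to apex (988) and middle fibroblasts (807), with 287.3 in base to middle fibroblasts and 11.1 in vascular smooth muscle (log2 fold change 2.16). *Bmp3* was at or below 8.47 in every apex line and at 399.8 in the middle to apex fibroblasts. *Bmp2* averaged 115.9 in the middle to apex fibroblasts, and the difference between these clusters did not pass the test (adjusted p = 0.27).

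The antagonist list had 3 higher and 1 lower of 12 tested, and 3 and 1 against the other fibroblasts. *Twsg1*, a modulator that can bind BMPs and chordin, stood at 1022 in the Acta2GFP, 683 in the PdgfraGFP and 802 in the PdgfrbGFP line against at most 400.3 (log2 fold change 2.62 ± 0.25 (SE), adjusted p = 2.2e-06), above every other cluster on 7 of 7 plates. *Bmper* stood at 26.9, 25.3 and 26.04 and *Fst*, encoding the activin-binding follistatin, at 69.2, 7.60 and 31.4, and of the list 1 and 0 were called higher and lower without the Acta2GFP line. *Grem1*, encoding gremlin, stood at 1.61, 1.02 and 16.2 in apex cells against 267.4 in middle and 246.5 in base to middle fibroblasts, with an adjusted p of 0.73. Of 16 receptors and response genes 5 were higher and 0 lower, and 5 and 0 against the other fibroblasts. *Id1* and *Id3*, which are direct targets of BMP signalling, stood at 142.1, 224.1 and 146.7 and at 729, 701 and 572 in the 3 lines, above every other sum (highest 125.2 and 407.7). *Smad6*, *Smad9* and *Bambi*, feedback and effector components, were the others against all clusters, at levels up to 83.4. Without the PdgfrbGFP line 2 of these genes passed.

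Of 12 WNT ligands and R-spondins tested 3 were higher and 0 lower, while the median of the list was -0.18. *Wnt5a* and *Wnt4* were higher against the other fibroblasts, where 0 were lower. *Wnt5a*, the prototype of non-canonical ligands, stood at 477.4 in the Acta2GFP, 481.4 in the PdgfraGFP and 397.3 in the PdgfrbGFP line (log2 fold change 4.74 ± 0.43 (SE), adjusted p = 2.1e-06), with the highest other sum at 320.6 and the apex above every other cluster on 6 of 7 plates, and *Wnt4* stood at 15.9, 12.6 and 16.7 below the middle to apex mean of 41.6. The third, *Wnt10a*, had a level of 1.91 in the PdgfraGFP line and 0 in the others, too little to describe. *Rspo3*, the R-spondin of the crypt base, stood at 0.166, 0.0458 and 0.974 against 18.4 in base fibroblasts (adjusted p = 0.23), and *Wnt2b* at 0.277, 0.0981 and 3.13 against 99.1 in middle fibroblasts (adjusted p = 0.22). The call count was sensitive to the method, with 2 higher and 2 lower by DESeq2, 1 and 3 with the other cells pooled, and 1 and 0 without the PdgfrbGFP line.

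Among 18 WNT receptors *Lgr5* was the only one called, a share close to the 5.65% of all genes called higher. Against the other fibroblasts *Lgr5* was higher and the receptors *Fzd1* and *Lrp6* were lower, beside 4.48% and 1.17% of all genes. Among 12 response genes 5 were higher and 0 lower: *Lef1*, *Tcf7*, *Sp5*, *Ccnd1* and *Kremen1*. The counts were 5 and 0 against the other fibroblasts, with *Nkd1* in place of *Kremen1*. *Tcf7* stood at 13.7, 9.19 and 3.54 and *Sp5* at 2.76, 0 and 1.44, both low, and *Ccnd1*, encoding cyclin D1, at 62.1, 97.02 and 61.9 in the range of middle to apex fibroblasts (96.2). *Axin2*, the most widely used reporter of canonical WNT activity, was near 0 in all lines (1.71, 0.788 and 1.31; adjusted p = 1). In the fit without Acta2GFP 3 of the 5 passed. Of 9 secreted WNT inhibitors only *Dkk3* was called, and 0 against the other fibroblasts, with 562, 608 and 627 in the apex lines and 587 in the middle to apex fibroblasts.

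Of 12 hedgehog genes 2 were higher and 0 lower, beside 5.65% and 0.934% of all genes. They were the receptor and target *Ptch1* (287.8, 188.9 and 186.9, against 248.9 in middle to apex fibroblasts and 38.7 in base fibroblasts) and the ligand-release factor *Disp1*. *Ptch1* alone passed against the other fibroblasts. Leaving out either Acta2GFP or PdgfrbGFP, 1 of them passed. Of 38 forkhead and mesenchymal transcription factors tested 10 higher and 3 lower were called, and 10 and 2 against the other fibroblasts, with 5 genes above all other sums. *Tbx3*, a T-box repressor, stood at 185.3 in the Acta2GFP, 161.7 in the PdgfraGFP and 173.8 in the PdgfrbGFP line (log2 fold change 4.70 ± 0.73 (SE), adjusted p = 3.4e-04), against at most 74.8, in a sum of vascular smooth muscle cells, and 3.11 in middle to apex fibroblasts. *Meox1* stood at 51.9, 64.9 and 45.2 against at most 25.1, and *Snai1*, known for epithelial-mesenchymal transition, at no less than 173.02 in any line against at most 129.8. *Runx1*, *Runx2*, *Sox6*, *Foxf1*, *Tcf21* and *Klf4* also passed. The 3 lower factors were *Zeb2*, *Ebf1* and *Prrx1*, with *Ebf1* at 3.60, 1.27 and 6.05 in apex cells and 195.2 in base fibroblasts.

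**Figure D2:**
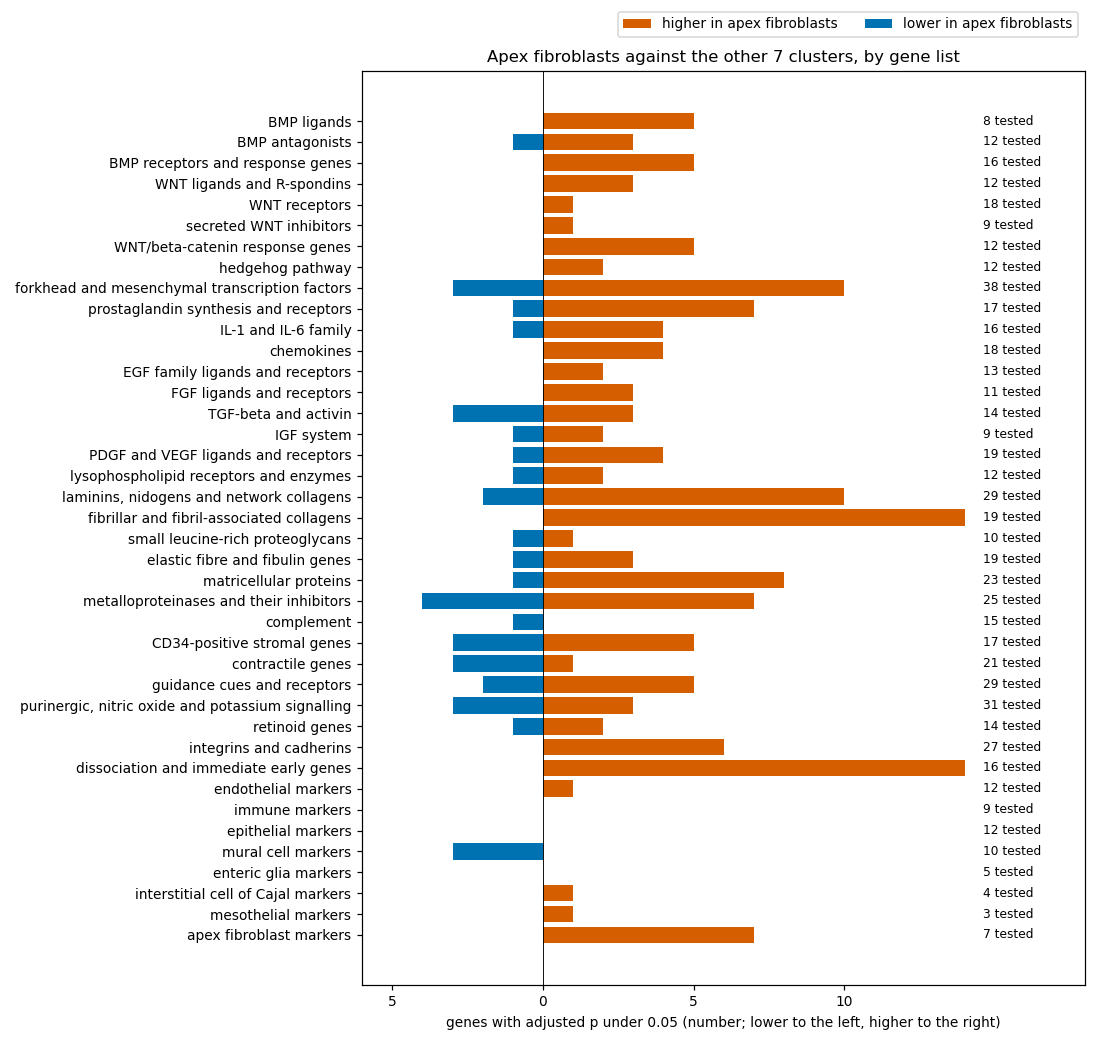
Number of tested genes of each list that were higher or lower in apex fibroblasts (adjusted p under 0.05) against the other 7 clusters, bars to the right for higher and to the left for lower genes, with the number tested beside each list. Immediate early genes and fibrillar collagens have the largest counts of higher genes, with 14 each.

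In the prostaglandin list 7 of 17 genes were higher and 1 lower, 6 and 1 against the other fibroblasts, and 5 lay above every other sum. The chain runs from *Pla2g4a*, the phospholipase that releases arachidonic acid, through the cyclooxygenases *Ptgs1* and *Ptgs2* and the prostaglandin E synthase *Ptges* to the exporter *Abcc4*. *Pla2g4a* stood at 510.0 in the Acta2GFP, 383.3 in the PdgfraGFP and 540.1 in the PdgfrbGFP line, with the highest other sum at 139.3 (log2 fold change 4.10 ± 0.50 (SE), adjusted p = 2.0e-05). *Ptgs1* stood at 614, 591 and 645 against at most 190.5, *Ptges* at 311.4, 216.3 and 254.2 against at most 136.7, and *Abcc4* at 125.3, 266.7 and 213.6 against at most 43.9. In all 5 the apex sums lay above every other sum, as they did for 1.4% of all genes. Against the middle to apex fibroblasts alone *Ptgs2* was the 1 gene of the list called higher, and 1 was lower. *Ptgis*, the prostacyclin synthase, was the lower gene, at 1.91, 0.628 and 11.2 against 221.7 in middle to apex and 223.6 in base to middle fibroblasts (log2 fold change -3.71 ± 0.68 (SE), adjusted p = 0.0017). The receptor *Ptger2* and the degrading enzyme *Hpgd* were the other 2 higher genes. With the other cells of a line pooled, 4 were higher and 1 lower.

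In the IL-1 and IL-6 family 4 of 16 were higher and 1 lower, and 3 and 2 against the other fibroblasts. Beside *Il1rl1* these were *Il1r1*, the IL-1 receptor (204.2, 144.8 and 185.02 against at most 98.6), its antagonist *Il1rn* and the receptor chain *Il6ra*, whereas *Il6st*, encoding gp130, was lower (104.6, 55.1 and 85.8 against 236.7 in cluster 6). Leaving out Acta2GFP, 2 were higher and 0 lower. *Il33*, the ligand of ST2, stood at 2.60, 0.291 and 9.90 in apex cells and at 236.1 in base fibroblasts (adjusted p = 0.31). Of 18 chemokines 4 were higher and 0 lower, and 3 and 2 against the other fibroblasts, the lower ones being *Ccl11* and *Cxcl12*. *Cxcl14* stood at 354.2 in the Acta2GFP, 291.9 in the PdgfraGFP and 396.4 in the PdgfrbGFP line with the highest other sum at 89.4, and *Cxcl10*, the interferon-induced ligand of CXCR3, at 151.3, 202.6 and 185.4, overlapping with pericytes (highest sum 234.8). *Cxcl12* stood at 189.1, 201.7 and 283.7 against 2160.1 in the neighbouring cluster 6, where it was lower in the apex (log2 fold change -2.86 ± 0.45 (SE), adjusted p = 0.0023).

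Among growth factors, *Nrg1* and *Ereg*, encoding epiregulin, were the 2 called of 13 EGF family genes, against all clusters and against the other fibroblasts. *Ereg* stood at 206.4, 171.8 and 330.7, against at most 88.6. Of 11 FGF genes 3 were higher and 0 lower: *Fgf7*, *Fgf9* and the receptor *Fgfr4*. These 3 were higher against the other fibroblasts too, and *Fgfr1* was lower there. *Fgf7*, keratinocyte growth factor, stood at 549 in the Acta2GFP, 411.5 in the PdgfraGFP and 435.8 in the PdgfrbGFP line with the highest other sum at 93.7 (log2 fold change 4.61 ± 0.66 (SE), adjusted p = 1.5e-04), and *Fgf10*, a ligand of the same receptor, at 11.9, 0.329 and 3.84 against 198.02 in middle fibroblasts. In the TGF-beta list 3 were higher and 3 lower of 14, and 3 and 4 against the other fibroblasts. *Tgfbi* stood at 2084, 1348 and 1372 and was the 1 gene above all other sums, while the ligands *Tgfb2* and *Tgfb3* and the co-receptor *Tgfbr3* were lower, with 4.04, 2.66 and 26.6 for *Tgfbr3* against at least 51.2. None of the 3 lower genes passed without the Acta2GFP line. Of 19 PDGF and VEGF genes 4 were higher and 1 lower, among them *Vegfa* (25.4, 23.02 and 21.8 against at most 19.3) and *Nrp2*, which were the 2 called against the other fibroblasts. Of 9 IGF genes 2 were higher and 1 lower, and without the Acta2GFP line these were 1 and 1. With the other fibroblasts alone as the comparison none was higher and *Igfbp5* was lower. Of 12 lysophospholipid genes *Lpar3* and *Sphk1* were higher and *S1pr3* lower, and 3 and 0 were called against the other fibroblasts.

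Of 19 fibrillar and fibril-associated collagens 14 were higher and 0 lower against all clusters, and 6 and 1 against the other fibroblasts. *Col1a1*, a major chain of collagen I, had a log2 fold change of 1.48 against all clusters and 0.35 against fibroblasts (adjusted p = 0.49). Among the collagen VI chains, which form beaded microfibrils, *Col6a1* stood at 3551 in the Acta2GFP, 2408 in the PdgfraGFP and 2825 in the PdgfrbGFP line with the highest other sum at 1428, and *Col6a2* at 3742, 2816 and 2624 against 1738. *Col6a4* stood at 141.2, 199.01 and 211.7 against at most 43.95 (log2 fold change 6.77 ± 0.90 (SE), adjusted p = 6.1e-05). *Col6a1*, *Col6a2*, *Col6a3* and *Col6a4* all passed against the other fibroblasts too. Of the 14, 10 passed without the Acta2GFP line, and with the other cells pooled 4 were higher and 1 lower.

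In the basement membrane list 10 of 29 were higher and 2 lower, and 8 and 3 against the other fibroblasts. The laminin chains went both ways: *Lama5*, *Lamb1* and *Lama1* were among the higher genes, and *Lama2* and *Lamb2* were lower. *Lama2*, the chain of muscle-type laminin, stood at 1.29 in the Acta2GFP, 1.42 in the PdgfraGFP and 24.7 in the PdgfrbGFP line against 214.6, 327.9, 302.6 and 277.4 in clusters 6, 1, 5 and 7 (log2 fold change -4.80 ± 0.75 (SE), adjusted p = 4.3e-04 against the fibroblasts). *Lamb1* stood at 981, 1461 and 1173 against at most 966. The network collagens *Col4a5*, *Col4a6* and *Col18a1* were also higher, the first 2 at levels shared with the middle to apex fibroblasts (295.9 and 104.98). In the fit without Acta2GFP 6 were higher and 2 lower.

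*Tnc*, encoding the matricellular protein tenascin C, stood at 2092 in the Acta2GFP, 1973 in the PdgfraGFP and 1851 in the PdgfrbGFP line, and the highest other sum was 552 (log2 fold change 4.35 ± 0.57 (SE), adjusted p = 5.6e-05). *Dmp1*, a phosphoprotein best known from bone and dentin, stood at 434.98 in the Acta2GFP, 534 in the PdgfraGFP and 496 in the PdgfrbGFP line against at most 34.4 (log2 fold change 6.98 ± 0.67 (SE), adjusted p = 2.2e-06). Both were above every other cluster on 7 of 7 plates, and they were the 2 matricellular genes above all other sums among 8 higher and 1 lower of 23. The counts against the other fibroblasts were 6 and 4 (median log2 fold change -0.11), the lower genes being *Tnxb*, *Thbs2*, *Thbs3* and *Ccn2*. *Ccn2*, connective tissue growth factor, was the lower one against all clusters, at 13.5, 17.8 and 26.2 against at least 38.04. Small leucine-rich proteoglycans had 1 higher (*Podn*) and 1 lower (*Aspn*) of 10, beside 5.65% and 0.934% of all genes. Against the other fibroblasts, where 4.48% of all genes were higher and 1.17% lower, 1 was higher and 4 were lower, *Dcn*, *Lum*, *Prelp* and *Aspn*, with decorin (*Dcn*) at 141.3, 111.4 and 567 in apex cells and 3458 in base to middle fibroblasts. Among elastic fibre genes 3 were higher and 1 lower of 19, and 2 and 4 against the other fibroblasts, to be read against the same shares.

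Of 25 metalloproteinases and inhibitors 7 higher and 4 lower were called against all clusters. Against the other fibroblasts the balance was the other way, with 3 higher and 4 lower (median log2 fold change -0.57), and *Mmp2*, *Mmp10* and *Mmp13* were the higher ones. *Mmp13*, a collagenase, stood at 26.3 in the Acta2GFP, 46.2 in the PdgfraGFP and 43.8 in the PdgfrbGFP line against at most 0.716, and *Mmp10*, a stromelysin, at 26.8, 53.3 and 41.5 against at most 25.2. *Mmp2* stood at 2681, 2411 and 1871 and *Timp1* at 184.9, 188.7 and 135.1, also above all other sums. *Timp3*, the matrix-bound inhibitor, was lower, at 14.6 in the Acta2GFP, 6.58 in the PdgfraGFP and 63.2 in the PdgfrbGFP line against at least 277.3 (log2 fold change -4.11 ± 0.61 (SE), adjusted p = 2.1e-04). DESeq2 called 6 higher and 6 lower, the pooled sums gave 4 and 7, and without the Acta2GFP line 5 and 2 passed.

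Of 17 genes of CD34-positive stroma, known from crypt base fibroblasts, 5 higher and 3 lower were called against all clusters (median log2 fold change -0.92), beside 5.65% and 0.934% of all genes. Against the other fibroblasts the balance was the other way, with 1 higher and 4 lower (median -1.71), beside 4.48% and 1.17% of all genes. *Cd34* itself stood at 39.3 in the Acta2GFP, 4.997 in the PdgfraGFP and 79.7 in the PdgfrbGFP line against 595, 1026 and 1293 in clusters 1, 5 and 7, and did not pass (adjusted p = 0.36), with the mural clusters and cluster 6 as low as the apex (42.7 in pericytes, 30.2 in cluster 6). *Cd248* (23.1, 7.28 and 80.4), *Cd81* and *Thy1* were lower against all clusters. *Procr*, the protein C receptor, stood at 421.3, 370.1 and 418.98 and was higher, at a level shared with middle to apex fibroblasts (581). Without the Acta2GFP line 3 and 0 were called, without PdgfraGFP 3 and 1, and with pooled cells 1 and 7. In the complement list *C3*, the central component of the cascade, stood at 8.33, 12.9 and 87.4 in apex cells and 1655 in base to middle fibroblasts (adjusted p = 0.39).

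The summed level of the contractile genes ran from 2182 to 2506 over the apex sums, within the range of the other fibroblasts (869.7 to 5498) and below the mural sums (6225 to 21715). Against all clusters 1 of 21 was higher and 3 lower, beside 5.65% and 0.934% of all genes. Against the other fibroblasts 5 were higher and 0 lower, beside 4.48% and 1.17% of all genes. *Mylk*, myosin light chain kinase, stood at 219.9 in the Acta2GFP, 203.5 in the PdgfraGFP and 290.5 in the PdgfrbGFP line, against 4.07 in base fibroblasts, 279.1 in middle to apex fibroblasts and 1377 in vascular smooth muscle (log2 fold change 3.66 ± 0.41 (SE), adjusted p = 9.7e-06 against the fibroblasts). *Tpm1*, *Tpm2*, *Cald1* and *Smtn* were the other 4, while *Acta2* stood at 262.3, 84.6 and 142.9 (adjusted p = 0.82) and *Myh11* at 46.6, 16.8 and 41.1 against 1856 in vascular smooth muscle. The 3 genes lower against all clusters (*Myl9*, *Des* and *Myocd*) did not pass without the Acta2GFP line, and 6 were lower without PdgfraGFP and 1 without PdgfrbGFP.

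Among 29 guidance genes 5 higher and 2 lower were called, and 5 and 4 against the other fibroblasts. *Sema3f* stood at 199.2, 115.4 and 172.02 against at most 58.3 and the netrin receptor *Unc5b* at 49.4, 90.5 and 37.7 against at most 23.96, while *Ntn1*, netrin 1, was lower at 2.24, 4.16 and 4.84 against 66.6 to 86.3 in clusters 1, 5 and 7. In the list of purinergic, nitric oxide and potassium signalling 3 higher and 3 lower of 31 were called, beside 5.65% and 0.934% of all genes, and none of the lower ones passed without Acta2GFP. The fibroblast comparison gave 4 and 2. *Ednrb*, an endothelin receptor, stood at 372.1 in the Acta2GFP, 371.7 in the PdgfraGFP and 329.5 in the PdgfrbGFP line with the highest other sum at 279.4. *P2ry1*, an ADP receptor known from the PDGFRα-positive cells of the muscle layer, stood at 257.7, 75.9 and 211.4, and *Tacr1*, the substance P receptor, at 48.98, 29.5 and 8.37 against at most 1.79. The guanylate cyclase subunits *Gucy1a1* and *Gucy1b1* were lower, at 14.1, 23.5 and 29.99 for *Gucy1b1* against 538 in pericytes. Of 14 retinoid genes *Aldh1a1* and *Rdh10* were higher and *Aldh1a2* lower. None was higher against the other fibroblasts, where *Aldh1a2* and *Aldh1a3* were lower. Of 27 integrins and cadherins 6 were higher and 0 lower, and 4 and 0 against the other fibroblasts, with *Cdh13* (607, 489 and 568.2) above all other sums (highest 163.3), and the gap junction gene *Gja1* at 412.8, 560.2 and 572, a level shared with middle to apex fibroblasts (478.5). Of these 6, 4 passed without the Acta2GFP line.

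Immediate early genes, which respond within minutes to growth factors and to tissue dissociation, were higher in most cases. Of 16 genes 14 were higher and 0 lower against all clusters, 15 and 0 against the other fibroblasts, and 10 were higher without the Acta2GFP line. *Fosb* stood at 789 in the Acta2GFP, 569 in the PdgfraGFP and 812 in the PdgfrbGFP line, and no other sum passed 313.2 (log2 fold change 4.08 ± 0.53 (SE), adjusted p = 4.7e-05). *Jun* stood at 1846, 1412 and 1598 and *Junb* at 1638, 1219 and 1343, above all other sums as well, whereas *Fos* (3148, 1798 and 1576) overlapped with smooth muscle (2696 in cluster 8). The summed level of the list ran from 11920.3 to 18647 over the 3 apex sums, from 1115 to 7402 over the other fibroblast sums and from 2398 to 14842 over the mural sums. With the other cells of a line pooled, 7 passed.

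The score of these genes, the mean log2 level over the list in a cell, was compared within plates, because plates can differ in dissociation. The plate median of the apex cells ran from 6.04 to 9.17 and lay above that of every other fibroblast cluster on 7 of 7 plates, by 0.891 to 4.31. It lay above every mural cluster on 3 of the 5 plates with at least 3 cells of a mural cluster. *Ptgs2*, itself an inducible gene, had plate medians of 95.6 to 1482 in apex cells and at most 28.2 in another fibroblast cluster. The part of the immediate early state in the level of *Ptgs2* and of the other higher genes was not tested.

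**Figure D3:**
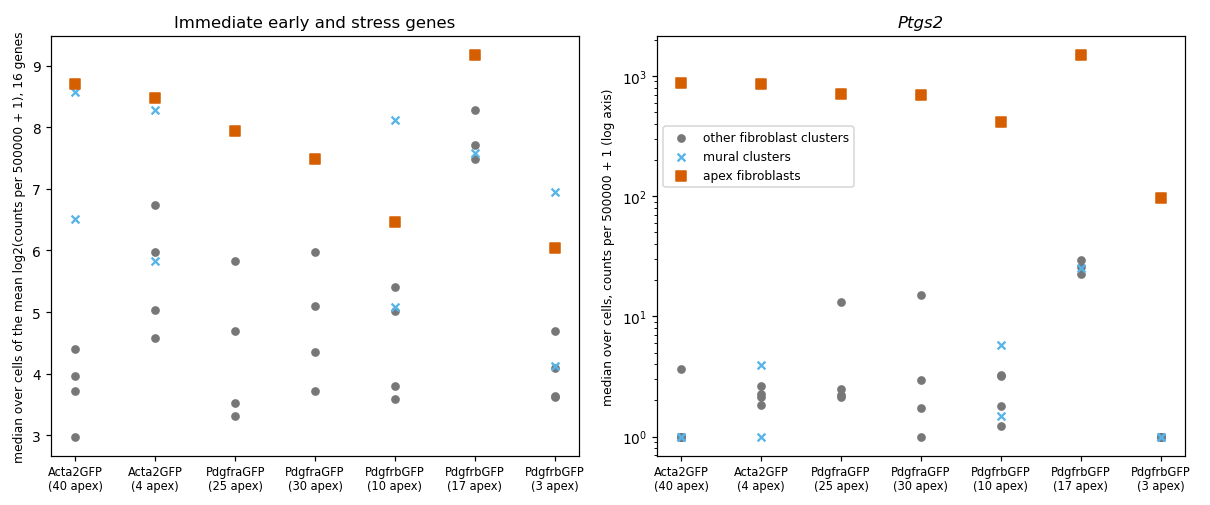
Plate medians of the immediate early gene score (mean log2 level) and of *Ptgs2* for the apex fibroblasts and the other clusters, with a position for each of the 7 plates that held at least 3 apex cells. The apex score is above every other fibroblast cluster on each plate, and the apex median of *Ptgs2* is at least 95.6 where the other fibroblast clusters do not pass 28.2.

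Measures of RNA content did not pass a test between apex cells and all other fibroblasts within plates. The log2 ratio of gene counts to spike-in counts was higher than in the other fibroblasts of the plate by a mean of 0.12 (SD 0.21, higher on 5 of 7 plates, exact sign-flip test over plates, two-sided, p = 0.125, adjusted p = 0.188), and by 0.0498 without the PdgfraGFP plate of 30 apex cells. The number of genes counted in cells thinned to 50000 counts differed by a mean of -118 (SD 158.5, higher on 1 of 7 plates, same exact test, p = 0.0938, adjusted p = 0.188), and by -69.8 without the PdgfrbGFP plate of 3 apex cells. The mitochondrial share differed by -0.00283 percentage points (SD 0.0653, higher on 4 of 7 plates, same exact test, p = 0.953). The smallest p that 7 plates allow is 0.0156. Against clusters 6 and 1 alone the log2 ratio was higher by 0.30, on 7 of 7 plates (same exact test, adjusted p = 0.0469), and the mitochondrial share differed by -0.159 percentage points, higher on 1 of 7 plates (same exact test, p = 0.0469, adjusted p = 0.0703). Their part in the other results was not tested.

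Markers of other cell types were examined next. Before deposit the authors had taken out cells without *Pdgfra* or *Pdgfrb* and those with a transcriptome of endothelial or immune kind. By their account the cells without either receptor mostly carried endothelial, immune or epithelial markers. Low levels of these 3 kinds of marker were thus set in part by that step. Epithelial, immune and enteric glia markers had 0 genes called of 12, 9 and 5 tested, and 0 by DESeq2 as well, in an edgeR comparison where 3700 genes had an unadjusted p under 0.05, and *Epcam* did not pass 1.04 in an apex line. The summed level of the 12 epithelial markers ran from 5.66 to 24.5 over the apex sums and from 7.98 to 86.1 over the other fibroblasts. For the 10 immune markers the apex range was 2.53 to 17.8 beside 0.381 to 64.4. Of 12 endothelial markers *Egfl7* was higher (4.45, 6.59 and 13.2), and *Pecam1* stood at 13.2, 3.94 and 9.97, beside up to 12.9 elsewhere. Of 10 mural markers 3 were lower (*Mcam*, *Abcc9* and *Des*), with *Rgs5* at 0.714, 0.220 and 13.3 against 3262 in pericytes and *Notch3* at most 0.757. *Ano1*, a chloride channel used to mark interstitial cells of Cajal, was higher (219.6, 98.1 and 194.6, with pericytes at 294.96), whereas *Kit*, the defining marker of those cells, was at most 1.497. Of 3 mesothelial markers tested *Upk1b* passed at levels of 6.14, 0.581 and 9.16, and *Msln* was at 0 in every sum.

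The test against the middle to apex fibroblasts rests on 2 of their sums. In this comparison 0.695% of the genes tested were higher and 57 genes lower (0.262%), with 3144 at an unadjusted p under 0.05. Among the called genes with a mean level of at least 50 in the apex, the 5 with the largest fold change were *Kcns3*, *Paqr5*, *Lpar3*, *Ano2* and *Cd300e*. *Kcns3*, a potassium channel subunit, stood at 129.6 in the Acta2GFP, 52.7 in the PdgfraGFP and 74.99 in the PdgfrbGFP line against 0.164 ± 0.233 (SD, n = 2; log2 fold change 9.65 ± 1.86 (SE), adjusted p = 0.014), but at 28.1 in middle fibroblasts. In the other direction stood *Wif1*, *Palmd*, *Gpr20*, *Aldh1a2* and *Itm2a*. *Wif1*, a secreted WNT inhibitor, was at 112.8 ± 98.97 in the middle to apex fibroblasts and at 0, 0 and 0.301 in the apex lines (log2 fold change -11.20 ± 2.08 (SE), adjusted p = 0.01), and the highest mean of a further cluster was 2.25. *Aldh1a2*, a retinoic acid synthase, stood at 121.1 ± 126.8 there and at 0.539, 0.260 and 3.38 in the apex. Of the markers 3 passed (*Il1rl1*, *Ptgs2* and *Lama5*), and of the immediate early genes 13 of 16 were higher and 0 lower.

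Leaving out Acta2GFP or PdgfraGFP leaves 1 sum of cluster 6, and that sum is then assumed to vary like the other groups. Without the Acta2GFP line 5 genes were higher and 0 lower than in the middle to apex fibroblasts (edgeR, 1862 at an unadjusted p under 0.05), without PdgfraGFP 67 and 27, and without PdgfrbGFP 62 and 41. Leaving out Cspg4dsRED, which holds no apex sum, gave 1.64% higher and 0.572% lower of the genes tested. All 10 named genes missed the threshold without Acta2GFP, 7 without PdgfraGFP and 3 without PdgfrbGFP. DESeq2 called 1395 and 551. The median log2 fold change of all genes in this comparison was 0.18 with edgeR and 0.00 with DESeq2.

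Against the middle fibroblasts 0.708% of the genes were higher and 0.589% lower, and 1.06% and 0.915% with the line as a replicate block. The blocked shares are given because all 3 same-line pairs of these clusters deviated together, with correlations of 0.104 to 0.137. Of the calls 54.6% were higher without the block, and 40.8% with DESeq2. Immediate early genes again had 14 of 16 higher, and 5 of the 7 markers passed, and with the block these were 14 and 6. *Cd34* averaged 595 ± 101.3 in the middle fibroblasts (SD, n = 3) against 41.3 ± 37.4 in the apex (log2 fold change -3.74 ± 1.032 (SE), adjusted p = 0.086). With the block the log2 fold change was -4.17 ± 1.027 (SE), with an adjusted p of 0.0493 (edgeR), and the apex mean was below that of the middle fibroblasts on 7 of 7 plates. Without the Acta2GFP line 5 were higher and 3 lower, without PdgfraGFP 50 and 30, and without PdgfrbGFP 82 and 110. Leaving out Cspg4dsRED gave 1.14% higher and 1.17% lower.

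Transcripts that were low in apex cells differed between plates, within lines as well as between them. Plate means of *Cd34* in apex cells were 101.6, 60.4 and 19.5 on the PdgfrbGFP plates with 17, 10 and 3 apex cells, 51.4 and 38.1 on the Acta2GFP plates with 4 and 40, and 7.10 and 3.24 on the PdgfraGFP plates with 25 and 30. *Aspn* followed a like order, with 30.8, 17.3 and 16.6, then 17.8 and 3.78, then 2.94 and 1.14 on the same plates. *Igfbp5* and *Des* were highest on the PdgfrbGFP plate with 17 apex cells too, at 13.1 and 8.37. The apex values of *Cd34* and *Aspn* thus ran over several fold from plate to plate, within lines as well as between them, below those of the base fibroblasts throughout. *Cd34* varied by plate in vascular smooth muscle cells too. It stood there at 84.1 and 7.18 on the PdgfrbGFP plates with 10 and 3 apex cells. On the Acta2GFP plates with 4 and 40 apex cells it stood at 109.5 and 2.99. *Aspn* in these smooth muscle cells stood at 259.4, 398.8, 297.4 and 262.3 on the same plates. A lower level of RNA per cell and a smaller share of cells that carry the transcript are both averaged in such a mean. The source of these low levels was not tested.

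A comparison of PdgfraGFP with PdgfrbGFP plates of apex cells called 0 of 14550 genes in either direction by edgeR (0.0% and 0.0%), with 607 at an unadjusted p under 0.05. DESeq2 called 0.701% higher and 1.97% lower in the PdgfraGFP plates. Without the PdgfraGFP plate of 30 apex cells edgeR called 5 higher and 42 lower, and without that of 25 apex cells 1 and 16. Each of these omissions leaves 1 PdgfraGFP plate, which is then assumed to vary like the other plates. Line, gate and plate cannot be told apart in this comparison.

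**Figure D4:**
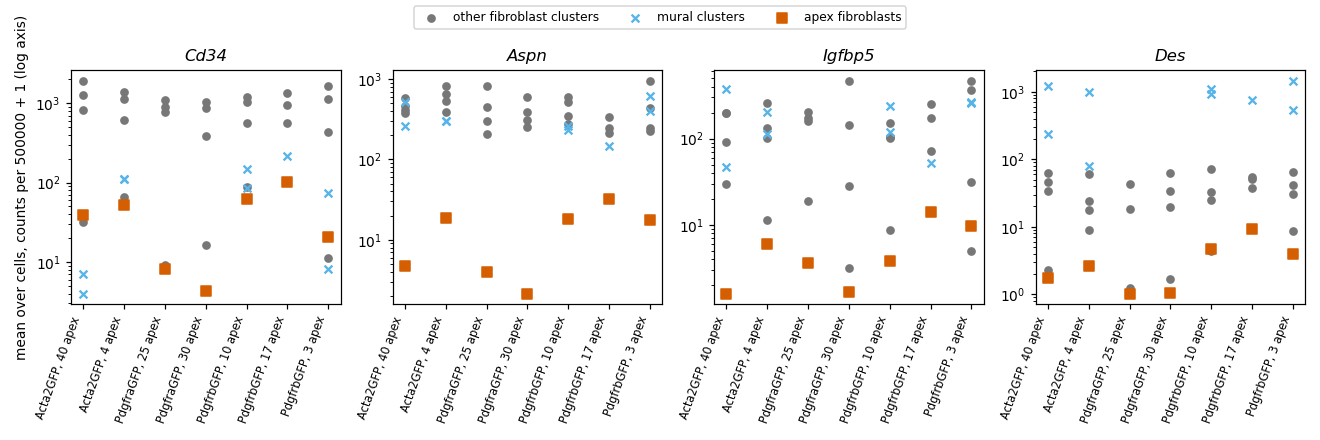
Plate means (counts per 500000, logarithmic axis) of transcripts that are low in apex fibroblasts, with squares for the apex cells, circles for the other fibroblast clusters and crosses for the mural clusters of the same plates. In apex cells *Cd34* and *Aspn* are highest on the PdgfrbGFP plate with 17 apex cells and lowest on the PdgfraGFP plate with 30.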

How the data were processed

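Single cells of the mouse colon (131 of 1646 in the apex cluster; 483, 425, 223, 45, 141, 142 and 56 in clusters 1, 5, 7, 6, 3, 4 and 8) were sorted into plates and sequenced as SmartSeq2 libraries with single reads, without molecular identifiers. The authors demultiplexed with bcl2fastq, trimmed adapters, aligned to GRCm38 (mm10) with TopHat and Bowtie, took out doublets (in the words of the methods) using samtools, and counted with featureCounts; the deposited table holds these whole-number counts of 46609 features per cell. Counting by strand is not stated, so overlapping and antisense genes are uncertain. Spike-ins (92 features, 1.36% of counts) were left out, which leaves 46517 genes. If doublets meant reads with a shared start, which is not stated, high counts saturate: 508 genes reached over 30% of the possible starts in a cell (highest count 5793).

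Counts were summed per cluster and reporter line where at least 10 cells were present, giving 21 sums. They were filtered with filterByExpr, scaled by TMM and tested with glmQLFit and glmQLFTest (edgeR 4.0.16, R 4.3.3, Benjamini-Hochberg, threshold 0.05, 13 residual degrees of freedom). The contrasts set the apex mean against the mean of the other 7 clusters, of the 4 other fibroblast clusters, of cluster 6 and of cluster 1. Alternatives were DESeq2 1.42.0, limma 3.58.1 on means per cell, no filter, a line block, a lower minimum of 5 cells in a sum, sums by plate instead of line, pooled sums, each line left out, and, added after seeing the data, counts corrected for shared starts. Tables and figures were made with Python 3.11.15, numpy 2.4.6, pandas 2.3.3, scipy 1.17.1 and matplotlib 3.10.9. The fits were tested on simulated data.

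The named genes are the 15 higher and 10 lower that have the greatest log2 fold change of all called genes, with a mean level of at least 50 in the apex (higher) or in another cluster (lower) and the same direction against every other cluster in each line, 5 per direction against cluster 6, and up to 4 per list. The members and gene lists were chosen with earlier results of these data known. Some list members are not reported here. Other genes are named to complete a count or a contrast and were chosen after their values were seen.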

Additional observations from a re-analysis of the deposited data

Results flagged for a closer look

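Values that stood apart among the 7 plates were looked for in 4 measures, and chance puts about 1 in 20 such groups past the limit used. On the PdgfraGFP plate with 30 apex cells the log2 ratio of gene to spike-in counts of the apex cells exceeded that of the other fibroblasts by 0.54, far from the other plates. On the Acta2GFP plate with 40 apex cells the immediate early gene score of the apex cells exceeded that of the highest other fibroblast cluster by 4.31, again far from the other plates.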

How the results depend on the processing

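Genes called are given here as percent of the genes tested, first higher and then lower. Against the other 7 clusters the counts moved by over 1.5 times with limma (3.52% and 2.82%), with the other cells of a line pooled (2.80% and 3.04%), with DESeq2 (3.58% lower) and with plates in place of lines (8.90% and 1.90%, fewer genes being tested). Against the other 4 fibroblast clusters they did so with pooled cells (3.16% and 3.56%), DESeq2 (3.96% lower), plates (2.27% lower) and limma (2.78% lower). Against cluster 6 DESeq2 gave 6.42% and 2.53%, plates 2.25% and 1.04% and limma 2.56% and 1.52%, and against cluster 1 they gave 2.04% and 2.95%, 2.77% and 2.82%, and 1.76% and 2.34%. The comparison of plates gave 0.701% and 1.97% with DESeq2 and 0.0178% and 0.0356% without a filter. Leaving out 1 line at a time (without Acta2GFP, cluster 8 has no sum and 6 clusters are left) gave 2.73% to 6.03% higher and 0.232% to 1.39% lower against the 7 clusters, 1.08% to 4.997% and 0.142% to 1.83% against the fibroblasts, 0.0236% to 1.64% and 0% to 0.572% against cluster 6, and 0.0236% to 1.14% and 0.0142% to 1.17% against cluster 1. Leaving out 1 plate gave 0% to 0.0355% and 0% to 0.298%. Of the genes called against the 4 fibroblast clusters 79.3% were higher, and 54.4% with DESeq2, 55.03% with limma and 46.97% pooled. DESeq2 also called 834 of the 1229 genes higher than in the 7 clusters and every one of the lower genes, and 0 turned sign.

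Lines carry the same names in several clusters. Over 14 pairs of same-line sums with an apex sum, the deviations from the cluster means had correlations of 0.0381 to 0.137 (median 0.0696), 5 of them over 0.1. All 3 pairs of the apex with cluster 1 were among these. Of all 43 same-line pairs 19 were over 0.1, and pairs from different lines had a median of -0.0316. Not every pair was over 0.1, so the lines were not taken as pairs for the comparisons with several clusters. With the line as a replicate block 4.002% higher and 1.17% lower were called against the 7 clusters, 3.61% and 1.29% against the fibroblasts, 0.787% and 0.345% against cluster 6, and 1.06% and 0.915% against cluster 1.

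The 25 genes with the greatest changes and the 7 markers kept their side of the threshold against the 7 clusters in every alternative, except *Rcan2*, *Gpr20* and *Des* without the Acta2GFP line and *Des* with pooled cells (adjusted p = 0.0627). The other genes described with the lists were followed as list counts only. Against cluster 6, *Paqr5* (0.0604), *Lpar3* (0.0723) and *Ano2* (0.0518) missed it with plates. The mitochondrial difference turned to 0.00689 with at least 10 apex cells per plate, and ran from -0.0155 to 0.0145 when 1 plate was left out, with 0.0145 without the PdgfraGFP plate of 30 apex cells and 0.00789 without the Acta2GFP plate of 4. With means it was -0.0695, and against clusters 6 and 1 alone -0.159. The difference in genes counted was -42.3 with at least 10 apex cells per plate. Against clusters 6 and 1 alone it turned to 2.5, and that in gene to spike-in ratio passed at 0.30 (7 of 7 plates, exact test, adjusted p = 0.0469). The cause was not tested. The depth limits transcripts near 0, and with 3 apex sums a miss of the threshold does not show equal levels.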
